A study of Mus musculus with 80 samples.

Results

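The core circadian clock feedback loop was described here by the transcripts of 10 genes, chosen by name: the activators Arntl, Clock and Npas2, the repressors Per1, Per2, Per3, Cry1 and Cry2, and the nuclear receptors Nr1d1 and Nr1d2. All 10 were among the 27179 genes of the count table and among the 13016 genes kept for testing, whose level reached 5 CPM or more in no fewer than 8 libraries. CPM is the count of a gene scaled to a common library total. RNA from 5 brain regions of 16 female mice, C57BL/6 by the sample labels and C57BL/6J by the study's methods, was sequenced, 8 virgin and 8 primiparous, where primiparous means that the female had raised her first litter. All females were born within days of each other, shared a room and a light cycle, and were killed in a single short window of 1 day, so that the data hold 1 circadian time and no rhythm can be read from them. The primiparous females had been housed with a male as young adults and were killed after their pups were weaned, 3 weeks later by the sample labels and after a longer interval by the study's methods. The virgin females were of the same age and were never mated. The hypothalamus and the neocortex had 8 virgin and 8 primiparous libraries. The amygdala, the hippocampus and the cerebellum had 7 virgin and 8 primiparous libraries, because the count table had no column for 3 virgin libraries. By the study's methods, 1 sample of each of these regions was taken out as an outlier after a principal component analysis of the data. Libraries with the same animal number came from the same female. The animal numbers had 3 digits in 2 virgin and 7 primiparous females and 4 digits in 6 virgin females and 1 primiparous female, so that number series and reproductive state were largely confounded, and the sources used here do not say what the series stands for.

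The clock is a loop of transcription and translation that runs in nearly every cell. The ARNTL protein, also called BMAL1, pairs with CLOCK or NPAS2 and activates genes through E-box sequences, among them the Per, Cry and Nr1d genes, whose PER and CRY proteins return to the nucleus and repress that activation. NR1D1 and NR1D2, also called REV-ERB alpha and beta, repress Arntl through elements known as ROREs. The suprachiasmatic nucleus of the hypothalamus is the central pacemaker, and the other brain regions hold clocks of their own. The comparison of virgin with primiparous females asks whether expression still differed long after the pups had gone, and the shared animals allow the same genes to be followed from region to region in 1 mouse.

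Start-site windows of RefSeq on GRCm38.p6, 250 bases before to 50 bases after an annotated start, were found for 9 of the 10 members, in 13 windows; Per2 was not matched. Both strands were searched for the letters of the E-box (CACGTG), the E-prime box (CACGTT), the D-box (TTANGTAA), the cyclic AMP response element or CRE (TGACGTCA), and the RORE. The 6 windows with a match are given 5′ to 3′ on the strand of the gene, with the matched bases in capitals, since they show where the letters read by the loop lie beside the members whose levels follow.
Per1, chr11:69098699-69098998, plus strand: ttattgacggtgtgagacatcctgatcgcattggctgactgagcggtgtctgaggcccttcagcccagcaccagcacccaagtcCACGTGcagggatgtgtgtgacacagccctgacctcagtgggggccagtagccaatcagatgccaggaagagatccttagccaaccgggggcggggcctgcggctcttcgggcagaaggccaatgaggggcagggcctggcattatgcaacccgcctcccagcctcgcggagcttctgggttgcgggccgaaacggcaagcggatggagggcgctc
Cry1, chr10:85185005-85185304, minus strand: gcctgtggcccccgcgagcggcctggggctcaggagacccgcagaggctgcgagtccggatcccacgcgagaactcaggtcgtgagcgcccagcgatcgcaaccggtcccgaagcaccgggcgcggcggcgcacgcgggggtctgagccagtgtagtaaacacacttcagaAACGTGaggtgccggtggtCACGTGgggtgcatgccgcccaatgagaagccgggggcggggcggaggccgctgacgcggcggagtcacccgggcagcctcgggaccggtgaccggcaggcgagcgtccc
Cry2, chr2:92434020-92434319, minus strand: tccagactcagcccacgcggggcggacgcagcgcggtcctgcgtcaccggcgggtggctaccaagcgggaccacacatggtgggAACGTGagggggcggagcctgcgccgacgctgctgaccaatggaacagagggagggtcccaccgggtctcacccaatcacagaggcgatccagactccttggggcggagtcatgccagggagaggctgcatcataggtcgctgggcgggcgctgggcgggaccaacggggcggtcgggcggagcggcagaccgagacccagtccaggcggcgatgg
Nr1d1, chr11:98775328-98775627, minus strand: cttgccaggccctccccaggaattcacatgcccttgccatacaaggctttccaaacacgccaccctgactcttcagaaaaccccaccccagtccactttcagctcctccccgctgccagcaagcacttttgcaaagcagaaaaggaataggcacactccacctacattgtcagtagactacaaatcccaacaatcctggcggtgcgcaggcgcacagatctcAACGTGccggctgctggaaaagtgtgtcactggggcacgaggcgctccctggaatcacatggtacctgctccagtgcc
Per3, chr4:151044616-151044915, minus strand: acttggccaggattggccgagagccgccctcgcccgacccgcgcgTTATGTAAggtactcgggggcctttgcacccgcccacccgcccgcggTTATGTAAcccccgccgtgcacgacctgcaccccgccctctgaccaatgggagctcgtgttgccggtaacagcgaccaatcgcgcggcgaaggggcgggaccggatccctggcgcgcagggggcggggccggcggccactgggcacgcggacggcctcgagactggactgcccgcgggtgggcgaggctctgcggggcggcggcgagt
Arntl, chr7:113207261-113207560, plus strand: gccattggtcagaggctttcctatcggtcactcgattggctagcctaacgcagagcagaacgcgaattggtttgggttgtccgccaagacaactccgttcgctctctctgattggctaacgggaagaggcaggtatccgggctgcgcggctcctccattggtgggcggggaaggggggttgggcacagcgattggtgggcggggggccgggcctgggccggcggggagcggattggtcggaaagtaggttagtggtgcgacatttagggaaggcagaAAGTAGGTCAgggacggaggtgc

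The E-box letters were found in the Per1 window, beginning 166 bases before the start site, and in the Cry1 window, beginning 60 bases before it. The E-prime letters were found in Cry1, 79 bases before the start, in Cry2, 166 bases before it, and in Nr1d1, 28 bases before it. The Per3 window held the D-box letters at 205 and at 158 bases before the start. The Arntl window held a RORE match 28 bases after the start, and no window of a member held the CRE letters. Among all 32851 windows of 27025 genes, 7.15% held the E-box, 4.68% the E-prime box, 2.32% the D-box, 0.606% the RORE and 1.79% the CRE. No match was found in the windows of Clock, Npas2 and Nr1d2, which says only that these letters were not in these windows.

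By GENCODE M21 on GRCm38, which is mm10, the genes lie at chr7:113207465-113314126 (Arntl, identifier 11865), chr5:76209868-76304792 (Clock, 12753), chr1:39193731-39363236 (Npas2, 18143), chr11:69095217-69109960 (Per1, 18626), chr1:91415982-91459324 (Per2, 18627), chr4:151003652-151044665 (Per3, 18628), chr10:85131700-85185064 (Cry1, 12952), chr2:92403646-92434043 (Cry2, 12953), chr11:98767932-98775333 (Nr1d1, 217166) and chr14:18204054-18239127 (Nr1d2, 353187). Reads were counted over exons. Nr1d1 shares 263 of its 3077 exonic bases with Thra, the thyroid hormone receptor alpha gene on the opposite strand, and because no source used here gives the strand setting of featureCounts, reads of the shared bases cannot be assigned to 1 of the pair. Cry2 shares 295 of 6320 exonic bases with D930015M05Rik and Arntl shares 33 of 7523 with Gm45355, both on the opposite strand.

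Library totals ran from 7959192 to 37871854 counts, and the rarest member, Npas2 in the cerebellum, was still covered by 63 to 196 reads in each library. The region markers separated the labelled region from the others in 4 of 5 lists: 6 hypothalamic genes, such as Pmch and Hcrt, summed to 614 to 988 CPM in every hypothalamus library and to 34.7 CPM or less elsewhere, and 5 cerebellar markers to 5146 to 5901 CPM in the cerebellum. Markers of the hippocampus (437 to 600 CPM there, 313 or less elsewhere) and of the neocortex (465.5 to 617 CPM, 310 or less elsewhere) did not overlap either. The 3 amygdala markers did, with 53.5 to 107 CPM in the amygdala, 48.0 to 59.7 in the hippocampus and 35.7 to 57.7 in the neocortex, so that they set the amygdala libraries only partly apart. The hippocampus library of primiparous animal 413 stood apart, with cerebellar markers at 460 CPM against 7.97 to 21.4 CPM in the other hippocampus libraries. Cry1, which is highest in the cerebellum, was at 21.9 CPM in that library and at 14.6 to 18.4 CPM in the other 14, and without animal 413 the step of Cry1 from amygdala to hippocampus was 0.25 in place of 0.23. The sum of 5 choroid plexus markers, such as Ttr, was uneven within regions and in both states, from 61.9 to 3523 CPM in virgin and from 61.0 to 3920 CPM in primiparous hippocampi, and from 35.3 to 1293 and from 47.6 to 3585 CPM in the cerebella. Leaving out any 1 hippocampus library gave no call of a member between the states there, and the 1 call of a member in the cerebellum is given below without each library in turn. In the hippocampus the sum was high in primiparous animals 421 and 425 and in virgin animals 4487 and 4488. Leaving out 1 library therefore never removed all of them, and the part of choroid plexus in the clock gene values was not tested. The hypothalamus was taken whole, so the suprachiasmatic nucleus was a small part of it. Of 6 markers of that nucleus, 3 were highest in the hypothalamus, the transcription factor Six6 (12.4 ± 2.63 CPM, SD, n = 16, and a mean of 0.118 CPM or less elsewhere) and the peptides Prok2 (1.99 CPM) and Nms (1.70 CPM). The other 3 were higher elsewhere, Vip (14.8 CPM in the hypothalamus and 55.5 in the neocortex), Lhx1 (13.4 and, in the cerebellum, 60.8) and Vipr2 (5.74 and, in the cerebellum, 15.1). Their sum of 29.8 to 68.2 CPM in the hypothalamus was thus no higher than the 52.3 to 85.2 CPM of the neocortex or the 64.9 to 92.6 CPM of the cerebellum. In such bulk tissue, fewer cells of a type and less RNA per cell cannot be told apart.

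Every member was present in every library of all 5 regions, and 2 of them had a strongly regional level (the plot of member levels by region). Npas2, the partner that can stand in for Clock, was lowest in the cerebellum and the hypothalamus, and Cry1 was highest in the cerebellum. Normalised to exonic length, Nr1d1 was the most abundant member in each region, at 51.5 to 78.4 CPM per kilobase, and Npas2 in the cerebellum was the least, at 1.56 CPM per kilobase. The share of all genes that differed between a pair of regions, by edgeR's quasi-likelihood test on 1 fit of all 10 groups, was 71.0% for hypothalamus and amygdala, 73.0% for hypothalamus and hippocampus, 77.7% for hypothalamus and neocortex, and 81.1% for hypothalamus and cerebellum. It was 58.7% for amygdala and hippocampus, 62.5% for amygdala and neocortex, 80.2% for amygdala and cerebellum, 67.0% for hippocampus and neocortex, 78.7% for hippocampus and cerebellum, and 79.9% for neocortex and cerebellum. Of the 10 members, 8, 9, 9 and 9 differed in the 4 pairs with the hypothalamus, in the order given, and 10, 6, 9, 8, 8 and 10 in the others. Regions share animals, and with the animal as a block 7 members differed between amygdala and neocortex and 7 between hippocampus and neocortex, with the other 8 counts the same. The libraries of a pair of regions did not overlap at all for 2 members between hypothalamus and amygdala (20.3% of all genes), 3 between hypothalamus and hippocampus (30.0%), 2 between hypothalamus and neocortex (25.4%) and 3 between hypothalamus and cerebellum (34.3%). The cerebellum was separated from the amygdala for 5 members (35.7% of genes), from the hippocampus for 4 (39.8%) and from the neocortex for 5 (32.8%). No member was separated between amygdala and hippocampus (10.3% of genes), amygdala and neocortex (6.96%) or hippocampus and neocortex (13.4%). Fitted differences use library sizes scaled by the TMM method and need not equal the ratio of the CPM means.

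**Figure D1:**
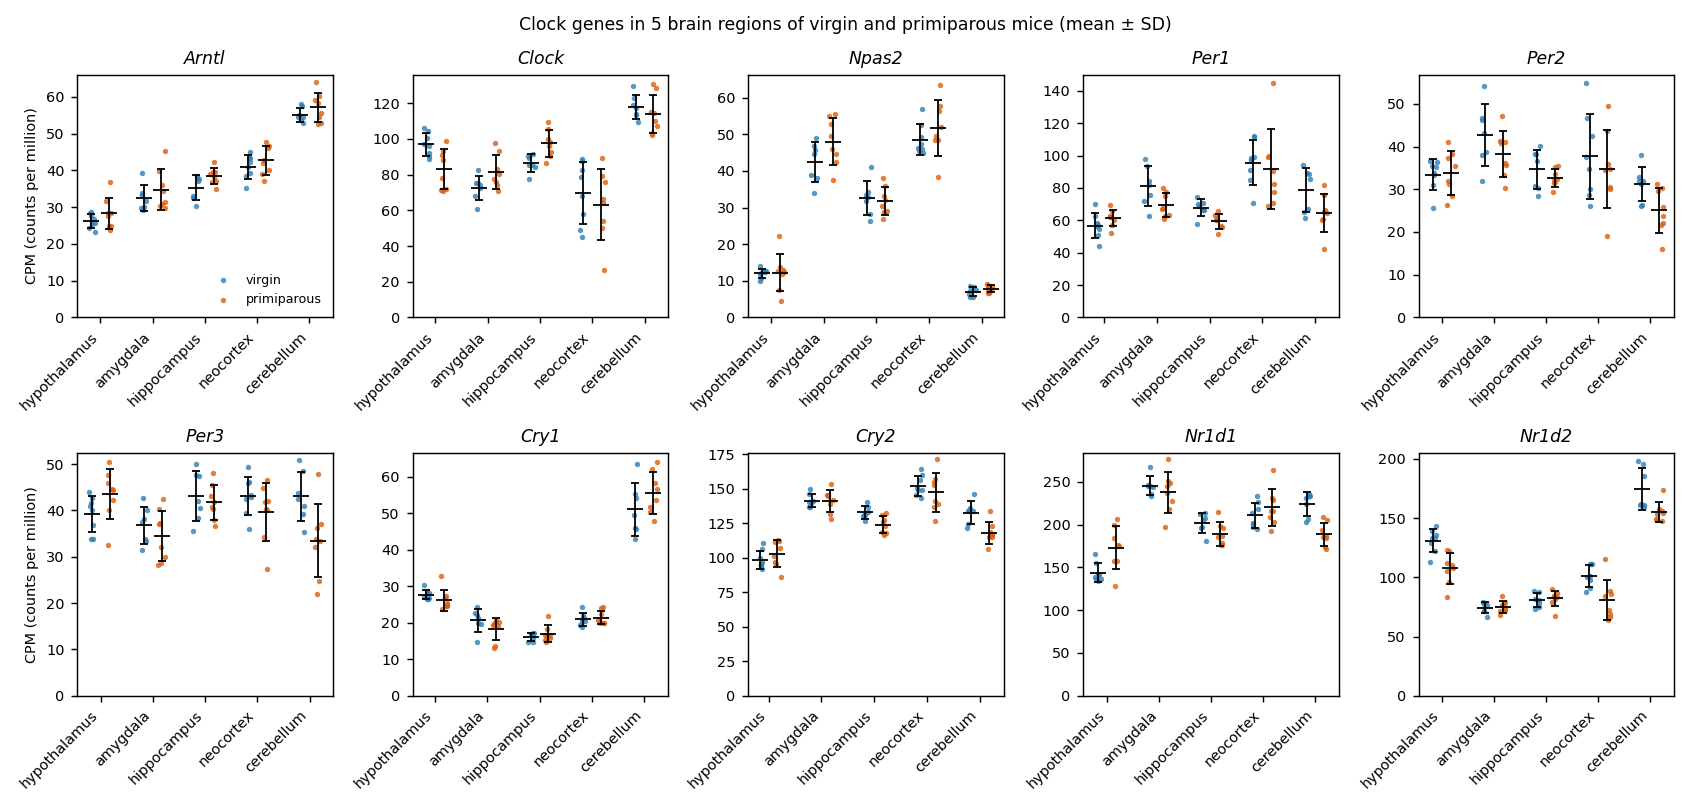
CPM (linear axes that start at 0) of the 10 clock genes in each of the 77 libraries, 1 panel per gene, by brain region, with virgin libraries in blue, primiparous libraries in orange and the mean ± SD of each group in black. Npas2 falls to means of 12.1 CPM in the hypothalamus and 7.45 CPM in the cerebellum, and Cry1 stands at 53.4 CPM in the cerebellum.

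Among the activators, Npas2 had the widest span. Its mean was 50.2 ± 6.15 CPM (SD, n = 16) in the neocortex, 45.4 ± 6.46 (n = 15) in the amygdala, 32.1 ± 4.11 (n = 15) in the hippocampus, 12.1 ± 3.604 (n = 16) in the hypothalamus and 7.45 ± 1.10 (n = 15) in the cerebellum, a 6.73-fold span. The neocortex and the amygdala did not differ beyond their spread (log2 difference 0.13 ± 0.090 SE, adjusted p = 0.205), and the step from hippocampus to hypothalamus was 1.55 ± 0.096 on the log2 scale (adjusted p = 3.13e-25), with no library of one region inside the range of the other. Such separated ranges were seen for 30.0% of all genes between these regions. Arntl, the obligate partner of CLOCK and NPAS2, ran in nearly the opposite order for the cerebellum, with 56.3 ± 3.24 CPM there, 41.8 ± 3.53 in the neocortex, 37.0 ± 3.12 in the hippocampus, 33.7 ± 4.66 in the amygdala and 27.3 ± 3.41 in the hypothalamus. All 4 neighbouring steps of Arntl passed the test, and the libraries of cerebellum and neocortex did not overlap, as for 32.8% of genes between this pair. Clock was highest in the cerebellum at 116 ± 9.05 CPM, followed by the hippocampus at 92.3 ± 8.51, with 90.0 ± 11.4 in the hypothalamus, 77.4 ± 9.27 in the amygdala and 66.4 ± 18.3 in the neocortex. Its hypothalamic and amygdalar levels did not differ beyond their spread (adjusted p = 0.405). Its neocortical libraries were spread widely in both states, from 44.8 to 88.9 CPM in virgin and from 26.3 (animal 427) to 89.2 CPM in primiparous females.

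The Per genes, which encode repressors that are made anew in each cycle, had narrower spans of 1.59-fold for Per1, 1.45-fold for Per2 and 1.19-fold for Per3. Per1 was at 93.7 ± 19.3 CPM in the neocortex, 74.8 ± 11.4 in the amygdala, 71.2 ± 14.2 in cerebellum, 63.3 ± 6.36 in hippocampus and 59.1 ± 6.82 in the hypothalamus. Its cerebellar and hippocampal levels did not differ beyond their spread (adjusted p = 0.745). Per2 ran from 40.4 ± 6.47 CPM in the amygdala to 27.9 ± 5.56 in the cerebellum, with 36.2 ± 9.32 in the neocortex and 33.6 in both the hippocampus and the hypothalamus. Its only neighbouring step past the threshold was the last, from hypothalamus to cerebellum (log2 difference 0.26 ± 0.091 SE, adjusted p = 0.00711), while amygdala and neocortex had an adjusted p of 0.0697, or 0.0325 in a fit with the animal as a block. Per3 had the narrowest span of the 10 members, from 42.4 ± 4.46 CPM in the hippocampus to 35.5 ± 4.84 in the amygdala, and none of its 4 neighbouring steps passed the test. Of its 10 pairs of regions 5 were called: the hippocampus was above the cerebellum (0.30, adjusted p = 0.000102), the amygdala (0.26, adjusted p = 0.00142) and the hypothalamus (0.18, adjusted p = 0.0152), and the neocortex was above the cerebellum (adjusted p = 0.00185) and the amygdala (adjusted p = 0.0155). In CPM, however, 9 of the 15 animals with both libraries were higher in the hypothalamus (mean 41.4) than in the hippocampus (mean 42.4). The fitted cerebellum to amygdala step (−0.04) had the sign opposite to the CPM means.

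Of the Cry genes, whose products are the stronger repressors of the loop, Cry1 was at 53.4 ± 6.62 CPM in the cerebellum, 27.0 ± 2.31 in the hypothalamus, 21.2 ± 1.75 in the neocortex, 19.3 ± 3.20 in the amygdala and 16.6 ± 1.81 in the hippocampus, a 3.22-fold span. The step from cerebellum to hypothalamus was 0.98 ± 0.058 on the log2 scale (adjusted p = 1.09e-26), and the libraries of these regions did not overlap, as for 34.3% of all genes. Cry2 was at 150 ± 11.2 CPM in the neocortex, 141 ± 6.62 in the amygdala, 128 ± 6.92 in the hippocampus, 125 ± 10.7 in the cerebellum and 101 ± 8.23 in the hypothalamus, and only neocortex and amygdala did not differ beyond their spread (adjusted p = 0.150). Neocortex and amygdala did not differ beyond their spread for Cry1 either (adjusted p = 0.130). Cry1 and Cry2 had their highest levels in different regions, and per kilobase Cry2 was above Cry1 in all 5, with 19.8 against 15.99 CPM per kilobase in the cerebellum, where they were closest.

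The nuclear receptors differed from each other in their order. Nr1d1 was at 241 ± 18.8 CPM in the amygdala, 215 ± 18.4 in the neocortex, 205 ± 22.3 in cerebellum, 195 ± 13.8 in hippocampus and 159 ± 24.1 in the hypothalamus. Nr1d2 was at 164 ± 16.5 CPM in the cerebellum, 119 ± 16.4 in the hypothalamus, 91.1 ± 16.9 in the neocortex, 81.5 ± 6.13 in the hippocampus and 74.9 ± 4.74 in the amygdala. Its step from neocortex to hippocampus had an adjusted p of 0.0301, or 0.0524 with the animal as a block. The amygdala was thus first of the 5 regions for Nr1d1 and last for Nr1d2, and the hypothalamus was last for Nr1d1 and second for Nr1d2. The cerebellar and hypothalamic libraries of Nr1d2 did not overlap (log2 difference 0.48 ± 0.052 SE, adjusted p = 1.82e-13), while cerebellum and hippocampus did not differ beyond their spread for Nr1d1 (adjusted p = 0.187, with a fitted step of −0.07 that goes against the order of the CPM means).

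In the hypothalamus, 3 members differed between virgin and primiparous females by edgeR's quasi-likelihood test with Benjamini-Hochberg adjustment over all 13016 genes: Clock and Nr1d2 were lower and Nr1d1 was higher after a first litter. The background was high, with 22.6% of all genes called in this region, so that 3 of 10 members is near the share of genes in general. Nr1d2 was at 113 CPM in the lowest, 133 in the median and 143 in the highest virgin library, and at 83.7, 110 and 123 CPM in the primiparous libraries. All 8 primiparous libraries were below the virgin median, though the groups overlapped, and the log2 fold change was −0.31 ± 0.067 SE (adjusted p = 0.0040). Clock, the partner of Arntl, had 88.6, 96.7 and 106 CPM in the virgin libraries and 71.0, 83.3 and 98.6 CPM in the primiparous ones, with 7 of 8 primiparous libraries below the virgin median (log2 fold change −0.25 ± 0.069 SE, adjusted p = 0.0144). Nr1d1 had 134, 140 and 166 CPM in the virgin libraries and 129, 176 and 207 CPM in the primiparous ones, with 7 of 8 primiparous libraries above the virgin median (0.24 ± 0.072 SE, adjusted p = 0.0190). The other 7 members had log2 fold changes of −0.10 to 0.12, none with an unadjusted p under 0.05. All 3 calls were kept when any 1 of the 16 libraries was left out.

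**Figure D2:**
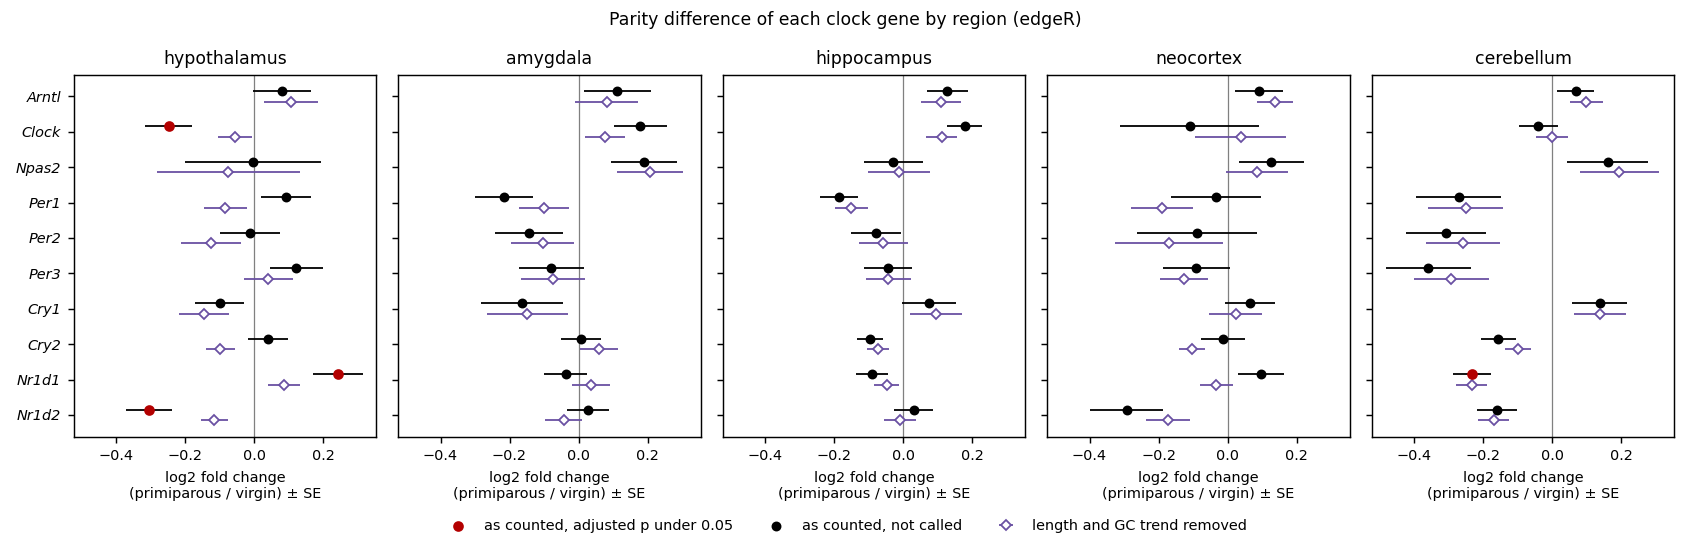
Log2 fold change (primiparous over virgin) of each clock gene in each region, with bars of 1 standard error from edgeR, red points where the adjusted p is under 0.05, black points elsewhere, and open diamonds for the fit with the length and GC trend removed. In the hypothalamus Clock (−0.25) and Nr1d2 (−0.31) lie below 0 and Nr1d1 (0.24) above it, in the cerebellum Nr1d1 lies at −0.23, and the open diamonds of the 3 hypothalamic genes lie nearer to 0.

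The hypothalamic libraries also differed between the groups in a property that touches these 3 calls. For each library, the trend of its deviations from the regional mean with the GC content of the genes was fitted. The slope, in log2 units per 10 percentage points of GC, was −0.165, −0.126 and 0.0876 in the lowest, median and highest virgin library of the hypothalamus and −0.0554, 0.0743 and 0.252 in the primiparous libraries, above 0 in 1 of 8 virgin and in 7 of 8 primiparous libraries. Clock and Nr1d2 have the lowest GC content of the 10 members, 40.9% and 41.8%, and Nr1d1, with 56.8%, has the second highest after Per1. With each library's trend with GC content and gene length removed, the differences became −0.12 for Nr1d2 (adjusted p = 0.0978), −0.05 for Clock (adjusted p = 0.600) and 0.09 for Nr1d1 (adjusted p = 0.319), so that no member passed the threshold, and 417 of all genes did. With the number series of the animals as a covariate, the values were −0.20, −0.16 and 0.16 (adjusted p = 0.243, 0.371 and 0.396). Thra, which shares exonic bases with Nr1d1, was also higher in primiparous hypothalami (0.27, adjusted p = 0.0033). The summed level of 5 hippocampal markers was 115 to 153 CPM in the virgin and 126 to 182 CPM in the primiparous hypothalami, and its part in these differences was not tested. Reproductive state, number series and the GC trend of the libraries went together in this region and cannot be told apart.

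**Figure D3:**
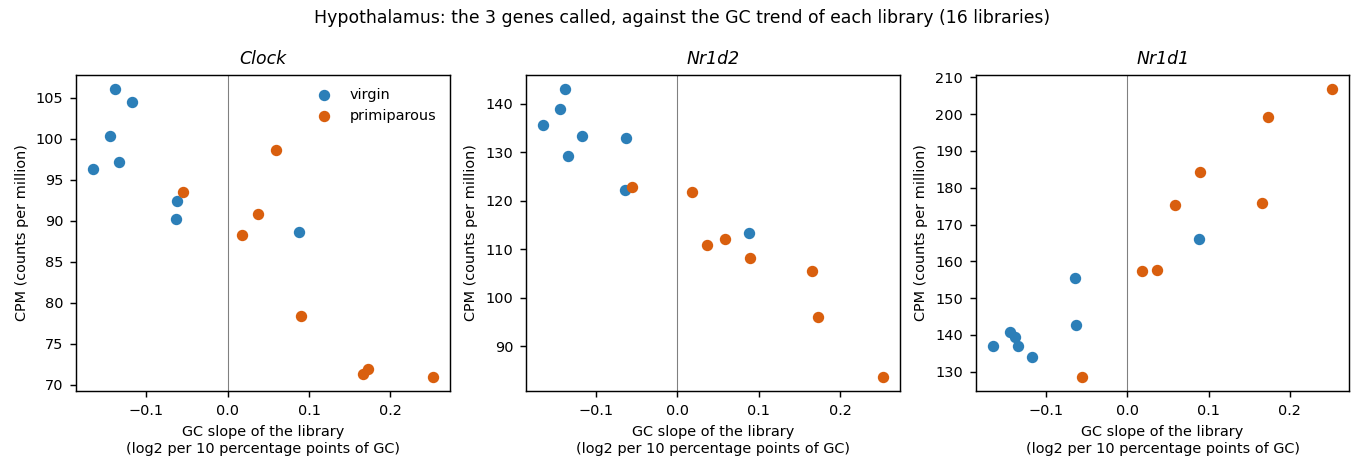
CPM of Clock, Nr1d2 and Nr1d1 in the 16 hypothalamus libraries against the slope of each library with gene GC content (log2 units per 10 percentage points of GC), virgin in blue and primiparous in orange. The virgin libraries lie mostly left of 0 (median −0.126) and the primiparous ones right of it (median 0.0743), and Clock and Nr1d2 fall and Nr1d1 rises along the axis.

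In the cerebellum Nr1d1 moved the other way and was lower in primiparous females. It was at 203, 231 and 236 CPM in the lowest, median and highest virgin library and at 172, 186 and 209 CPM in the primiparous libraries, and all 8 primiparous libraries were below the virgin median (log2 fold change −0.23 ± 0.055 SE, adjusted p = 0.0483). Only 0.707% of all genes, 92 of 13016, were called in this region. The size of the difference was the same with the length and GC correction (−0.23, adjusted p = 0.0117), and that of Thra was −0.05 (adjusted p = 0.571). The call lay at the threshold: it was kept without primiparous animal 421 or 4493 or virgin animal 4488 or 4489, and it was lost, at adjusted p from 0.0504 to 0.139, when any of the other 11 libraries was left out, primiparous 413, 414, 415, 418, 425 and 427 and virgin 405, 409, 4486, 4487 and 4491. With the number series as a covariate the difference was −0.30 and not called (adjusted p = 0.476).

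Of the 5 Per and Cry genes, none passed the test over all genes in the cerebellum, where Per1, Per2, Per3 and Cry2 had negative and Cry1 positive fold changes. Per1 had 61.5, 85.4 and 94.0 CPM in the virgin and 42.0, 64.8 and 81.8 CPM in the primiparous libraries (−0.27 ± 0.12 SE, adjusted p = 0.238). Per2 had 26.1, 31.8 and 37.9 CPM against 15.9, 24.8 and 31.4 CPM (−0.31 ± 0.12 SE, adjusted p = 0.159). Per3 had 35.4, 42.5 and 50.98 CPM against 21.9, 33.7 and 47.8 CPM (−0.36 ± 0.12 SE, adjusted p = 0.138). For Per1, Per2 and Cry2 all 8 primiparous libraries, and for Per3 and Nr1d2 7 of 8, lay below the virgin median, and the groups of each overlapped. Cry2 differed by −0.16 ± 0.050 SE (adjusted p = 0.106) and Nr1d2 by −0.16 ± 0.057 SE (adjusted p = 0.140), the latter with an adjusted p of 0.0413 after the length and GC correction. That correction left Cry2 at −0.10 (adjusted p = 0.132). With the number series as a covariate, Per3 was at −0.13 (adjusted p = 0.918) and Cry2 at −0.09 (adjusted p = 0.884). Per1, Per2 and Nr1d2 were at −0.29, −0.24 and −0.19 in that fit, none called. Without primiparous animal 4493, Per3 and Cry2 passed the test (adjusted p = 0.0223 and 0.0326), and the number of genes called in the region rose to 903. Arntl, Cry1 and Npas2 had positive log2 fold changes there (0.07, 0.14 and 0.16), none called. The summed level of 5 oligodendrocyte markers also moved with the groups, from 4035 to 5470 CPM in the virgin cerebella and from 4963 to 6977 CPM in the primiparous ones, as did that of 5 microglial markers (61.0 to 75.3 and 72.8 to 91.6 CPM), and their part in the clock gene differences was not tested.

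In the amygdala, the hippocampus and the neocortex no member passed the test, against a background of 0% of genes in each, and DESeq2 and limma-voom called no member either. At an unadjusted p under 0.05 there were 2, 4 and 1 members, among 1544, 961 and 1276 genes. In the hippocampus, Clock was at 77.4, 85.7 and 91.7 CPM in the virgin and 86.8, 97.4 and 110 CPM in the primiparous libraries, with all 8 primiparous libraries above the virgin median (0.18 ± 0.051 SE, adjusted p = 0.564). Per1 was at 58.0, 69.1 and 74.3 CPM against 51.7, 60.3 and 65.7 CPM, with all 8 below it (−0.19 ± 0.055 SE, adjusted p = 0.564). In the amygdala, Per1 (−0.22, adjusted p = 0.308, all 8 below the virgin median) and Clock (0.18, adjusted p = 0.349) had the same signs as in the hippocampus, and in the neocortex Nr1d2 had −0.29 ± 0.11 SE (adjusted p = 0.479). These were smaller with the length and GC correction, −0.10 and 0.08 in the amygdala, 0.11 for Clock and −0.15 for Per1 in the hippocampus, and −0.17 for Nr1d2 in the neocortex. The summed level of 5 astrocyte markers was 1175 to 1328 CPM in virgin and 968 to 1245 CPM in primiparous neocortices. Its part in the Nr1d2 difference was not tested. The GC slope was above 0 in 6 of 7 virgin and 2 of 8 primiparous amygdala libraries. In none of the 5 regions were the virgin and primiparous libraries of any member fully separated, which was so for 0.884% of all genes tested in hypothalamus, 0.146% in amygdala, 0.0845% in hippocampus, 0.0154% in neocortex and 0.323% in cerebellum. Counted over the 5 regions, Per2 was the only member whose fitted difference was negative in all 5, with 33 of 40 primiparous libraries below the virgin median of their region, and Arntl the only member whose difference was positive in all 5, with 15 of 40 below. The hypothalamic difference of Per2 was close to 0, at −0.01 ± 0.088 SE, with 4 of 8 primiparous libraries below the virgin median. Per1 and Nr1d2 were, with the length and GC correction, also negative in all 5, and Arntl was again positive in all 5. Those libraries came from 8 animals, and none of these Per2 or Arntl differences was called.

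Interaction terms, hypothalamus against each other region, tested whether the parity difference of a member was unequal between regions. These tests share the hypothalamic libraries. Of all genes, 18.2% were called against the amygdala, 17.2% against the hippocampus, 0% against the neocortex and 15.5% against the cerebellum. Against the amygdala 3 members were called, Clock (difference of log2 fold changes −0.42 ± 0.10 SE, adjusted p = 0.0052), Nr1d2 (−0.33 ± 0.089 SE, adjusted p = 0.0095) and Nr1d1 (0.29 ± 0.10 SE, adjusted p = 0.0400). Against the hippocampus 4 were called, the same 3 genes (Clock −0.44, Nr1d2 −0.35, Nr1d1 0.32) and Per1 (0.27 ± 0.093 SE, adjusted p = 0.0420). With the animal as a replicate block, Nr1d1 was no longer called against the amygdala (adjusted p = 0.0742) or the hippocampus (adjusted p = 0.0505), and with the length and GC correction added to the block none of these 7 interactions was called. Against the neocortex no member reached an unadjusted p under 0.05, nor did the block call any, and 336 of all genes did at that level.

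The opposite signs of Nr1d1 in hypothalamus and cerebellum gave the interaction that held in the most fits. The difference of its log2 fold changes was 0.47 ± 0.097 SE (adjusted p = 0.0022), 0.45 with the replicate block (adjusted p = 0.0050) and 0.31 with the block and the length and GC correction (adjusted p = 0.0057), though not with the number series as a covariate (0.45, adjusted p = 0.229). Per3, at 0.12 in the hypothalamus and −0.36 in the cerebellum, had an interaction of 0.47 ± 0.15 SE (adjusted p = 0.0275), with an adjusted p of 0.0461 with the block and of 0.153 with the block and the correction. Per1 was called only with the block (0.37, adjusted p = 0.0444, against 0.0819 without it).

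To set the 5 regions of each animal on 1 scale, the log2(CPM + 4) values of the 14 animals with all 5 libraries, 6 virgin and 8 primiparous, were averaged over regions. Nr1d2 was separated between the states: the animal means ran from 6.76 to 6.87 in virgin and from 6.60 to 6.75 in primiparous females, so that each of the 8 primiparous animals lay below each of the 6 virgin animals. The difference was −0.14, with an exact two-sided permutation p of 0.000333, the smallest that the 3003 splits of the animals allow, and with limma over all genes an adjusted p of 0.316 (0.0617 to 0.693 over the alternatives that used all animals, another pseudocount, the series, the deposited log2 values or the length and GC correction). Groups did not overlap for 0.161% of all genes, and limma called 0% of genes, with 1288 at an unadjusted p under 0.05. With the length and GC correction, which was added for this measure once the data had been seen, the Nr1d2 difference was −0.11 (exact permutation p = 0.00167), and the groups overlapped, with 7 of 8 primiparous animals below all virgin animals. The hypothalamic, neocortical and cerebellar differences of Nr1d2 were −0.31, −0.29 and −0.16, while those of amygdala and hippocampus were 0.03 and 0.03. With the correction they were −0.12, −0.17 and −0.17, and −0.04 and −0.0079, all below 0.

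**Figure D4:**
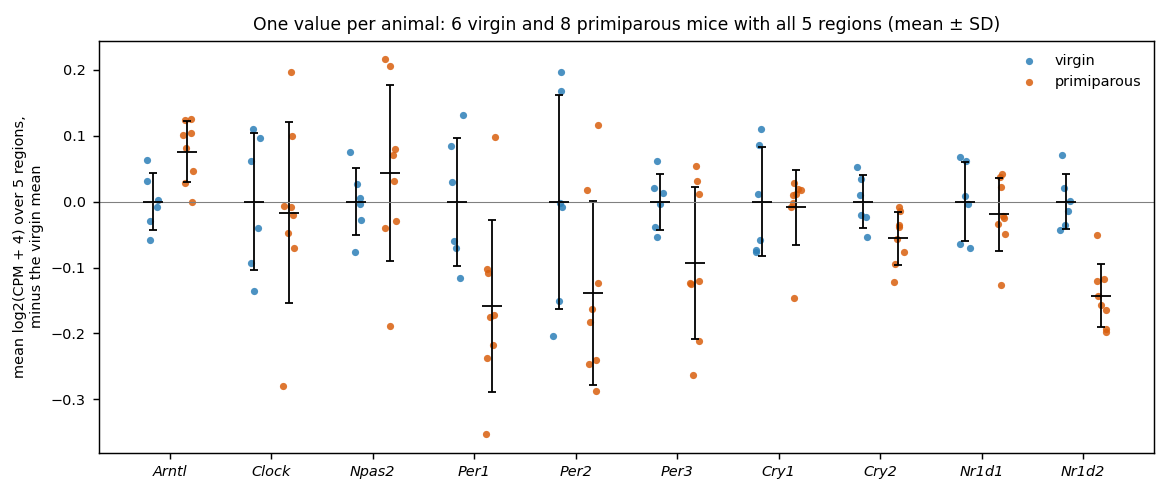
Mean log2(CPM + 4) over the 5 regions for each of the 14 animals with all libraries, minus the virgin mean of the gene, with 6 virgin animals in blue, 8 primiparous animals in orange and the mean ± SD of each group in black. For Nr1d2 the 8 primiparous animals (6.60 to 6.75 before that subtraction) lie below the 6 virgin animals (6.76 to 6.87), and the other 9 genes overlap.

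The other members of the animal mean overlapped between the states. Arntl was 0.08 higher in primiparous animals (exact permutation p = 0.0123), Per1 was 0.16 lower on the log2 scale (−0.16, p = 0.0313) and Cry2 0.06 lower (−0.06, p = 0.0236), and the remaining 6 had an exact permutation p of 0.0856 or more. After adjustment over all genes in limma none of them passed (adjusted p = 0.377 to 0.959 over the other 9 members). With the length and GC correction the exact permutation p was 0.00433 for Arntl, 0.00599 for Per1, 0.00333 for Cry2 and 0.0480 for Per3, and none of them passed after adjustment over all genes in limma (adjusted p = 0.353, 0.287, 0.366 and 0.468).

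The same animal number in each region also allowed the question whether a mouse with a high level of a clock gene in 1 region had a high level in another. For each of the 10 members and 10 pairs of regions, Pearson's r over 14 to 16 animals was computed after centring on reproductive state, which gave 100 relations. Of these, 63 were positive, the median r was 0.0753, and 8 of 100 reached 0.5, against 5.04% of all genes and pairs. Over all genes, the median r of a pair of regions lay between −0.0175 and 0.0632. The permutation test (100000 permutations of animals within state) gave 6 relations with p under 0.05, against 5.73% over all genes and pairs, and none with an adjusted p under 0.05 over all genes. Over all genes the adjusted calls were 0% in 8 pairs of regions, 0.0307% for hippocampus and neocortex and 0.0230% for hippocampus and cerebellum. With the length and GC correction the median r was 0.134, 11 reached 0.5 and none was called. Of all genes, 3.765% to 6.80% reached 0.5 in a pair of regions with that correction. No relation of a clock gene between regions was therefore detectable after adjustment with this number of animals.

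Per1 and Per2 had the highest medians over the 10 pairs of regions, 0.258 and 0.289, and all 20 of their correlations were above 0 (the lowest 0.00832). The highest single value was that of Per1 between neocortex and cerebellum (r = 0.77, permutation p = 0.00195, adjusted p = 0.330, rho = 0.84 with permutation p = 0.00014, n = 15). It was 0.70 without the 2 animals farthest from the median, 0.87 over the 7 virgin and 0.74 over the 8 primiparous animals, 0.77 with the number series also removed and 0.73 with the length and GC correction. Per2 in the same pair had r = 0.57 (permutation p = 0.0360, adjusted p = 0.548, rho = 0.63 with permutation p = 0.0146, and 0.61 without those 2 animals). Both Per1 and Per2, which respond to neuronal activity as well as to the clock, had their highest r in this pair of regions, where 8.10% of all genes reached 0.5. Clock had r = 0.65 between hypothalamus and cerebellum (permutation p = 0.0276, adjusted p = 1.00, rho = 0.63 with permutation p = 0.0318, 0.50 without 2 animals), with 0.063 in the 7 virgin and 0.79 in the 8 primiparous animals. With the length and GC correction this Clock value was 0.77 (permutation p = 0.00628, adjusted p = 0.708), the highest of the corrected values. Per1 between hypothalamus and cerebellum was 0.36 without and 0.71 with the correction (corrected permutation p = 0.00485, adjusted p = 0.686). Which relation ranked first thus depended on the processing. Nr1d2 had a negative relation between amygdala and neocortex (r = −0.70, permutation p = 0.00475, adjusted p = 0.796, rho = −0.73 with permutation p = 0.00289, −0.59 without 2 animals), and Arntl had a negative median over its 10 pairs, −0.20.

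**Figure D5:**
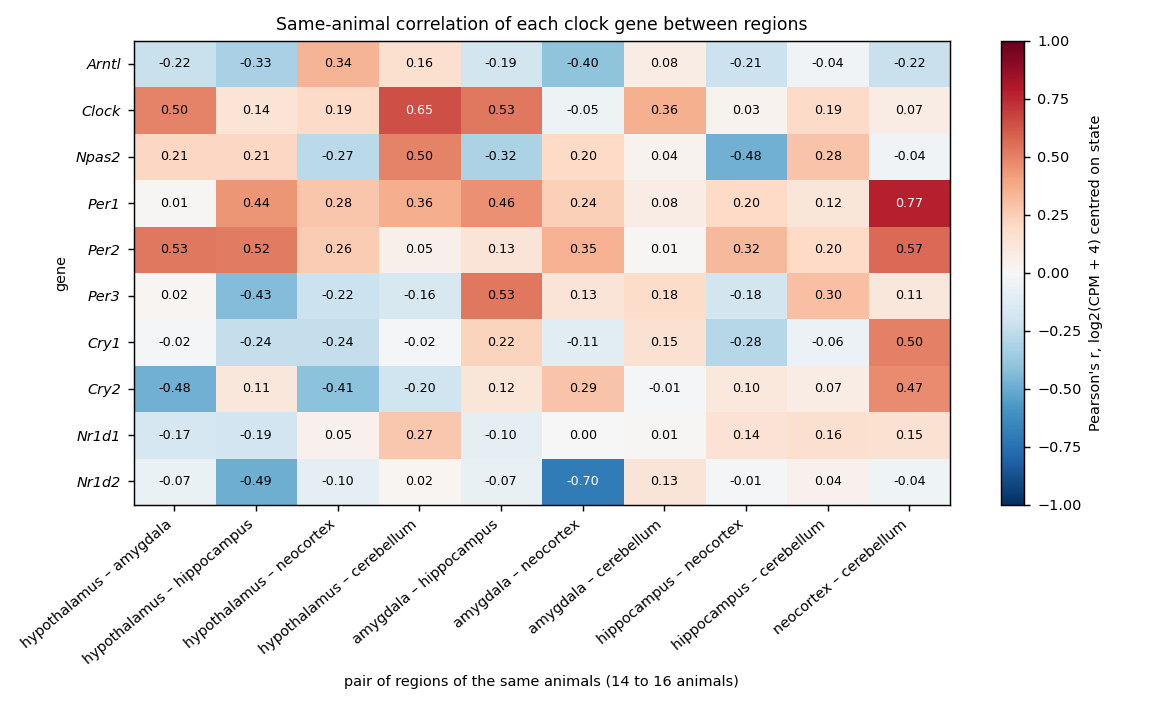
Pearson's r of each clock gene (rows) between each pair of regions (columns) over 14 to 16 animals, of log2(CPM + 4) centred on reproductive state, on a colour scale from −1 to 1. Per1 in neocortex and cerebellum has the highest value (0.77) and Nr1d2 in amygdala and neocortex the lowest (−0.70), and the median of the 100 values is 0.0753.

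Within a region, the members were compared with each other over the animals, in the same units and with the same permutation test, adjusted for each first-named member over all other genes. These values share a library, and with it depth and base composition. Of 225 relations, 35 had p under 0.05, as had 97348 of the 650750 relations of a member with any gene. An adjusted p under 0.05 was reached by 13, against 3.54% over all genes, 5 in the hypothalamus, 7 in the neocortex, 1 in the cerebellum and 0 in the amygdala and the hippocampus. The count depends on which gene of a pair is named first: adjusted for the second-named gene 14 were called, and 10 were called either way, 5 in the hypothalamus, 4 in the neocortex and 1 in the cerebellum. In the hypothalamus, Nr1d1 and Nr1d2 moved in opposite directions from animal to animal (r = −0.85, permutation p = 0.00018, adjusted p = 0.0056, rho = −0.81 with permutation p = 0.00063, −0.85 without 2 animals), and r was −0.59 with the length and GC correction. Cry2 rose with Nr1d1 (r = 0.89, adjusted p = 0.0042, corrected 0.70) and fell with Nr1d2 (r = −0.79, adjusted p = 0.0093, corrected −0.42). Clock rose with Nr1d2 (r = 0.78, adjusted p = 0.0276) and fell with Cry2 (r = −0.79, adjusted p = 0.0319), and these values were 0.25 and −0.19 with the correction. The share of all genes called was 18.0% for Nr1d1, 21.1% for Cry2 and 6.87% for Clock in this region.

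In the neocortex, Per1 and Per2 rose together (r = 0.80, permutation p = 0.00061, adjusted p = 0.0373, rho = 0.83 with permutation p = 0.00023, 0.73 without 2 animals), also with the correction (0.78), against a share of 3.08% of genes called with Per1. Per1 and Per2 were also correlated with Cry2 there (r = 0.86 and 0.68, adjusted p = 0.0249 and 0.0342, corrected 0.39 and 0.30), with 20.6% of genes called for Per2. The correlation of Per2 with Cry2 was not called when adjusted for Cry2 (adjusted p = 0.0690). Among the 44.0% of genes called with Clock in the neocortex were 5 members, Arntl (r = 0.69), Npas2 (0.64), Per2 (0.68), Nr1d1 (−0.67) and Nr1d2 (0.70), of which only Per2 and Nr1d2 were also called when adjusted for the other gene. Without the 2 animals farthest from the median of Clock the last 4 were 0.27, 0.37, −0.21 and 0.59, and with the length and GC correction over all 16 animals they were 0.70, 0.83, 0.10 and 0.61. For Arntl with Clock r was 0.42 without the 2 animals farthest from the median of Arntl and 0.06 with the correction. The relations with Npas2 and Per2 were thus lower without those animals and higher with the correction, and that with Nr1d1 was not kept in either. Primiparous animal 427, whose neocortex library had a length slope of −0.271 against −0.0677 or more in the other 15, is the lowest for Clock. In the cerebellum, Per3 rose with Cry2 (r = 0.87, permutation p = 7e-05, adjusted p = 0.0304, rho = 0.81 with permutation p = 0.00091, 0.72 without 2 animals, corrected 0.70), against 2.11% of genes called with Per3.

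The loop links Arntl with Nr1d1 and with Nr1d2 by direct repression, and the pairs differed in sign. Nr1d1 and Arntl had a negative r in 5 of 5 regions, from −0.51 to −0.29 with a median of −0.34, and from −0.37 to −0.014 with the correction (median −0.18). Nr1d2 and Arntl had a positive r in 4 of 5 regions, from −0.026 to 0.72 with a median of 0.45, and in 3 of 5 with the correction (median 0.087). None of these 10 values was called. Arntl and Clock were positive in 5 of 5 regions (median 0.23), and Nr1d1 and Nr1d2 were negative in 5 of 5 (median −0.33). Of these pairs only Arntl with Nr1d1 kept 1 sign in all 5 regions with the correction. A constant sign was not particular to these pairs. Without the correction, Npas2 with Cry2 and Per1 with Nr1d1 were also positive and Cry2 with Nr1d2 negative in all 5. With it, Npas2 with Cry2, Per3 with Nr1d2 and Cry1 with Nr1d2 were positive in all 5.

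The genes most like each member were sought over all 77 libraries, after centring on region and state. The 77 libraries came from 16 animals, so these values are descriptions. For Clock the highest r were with Usp9x (0.91), Dpp8 (0.90) and Taok1 (0.90), and the lowest with Elob (−0.83), Nop53 (−0.82) and Ndufa13 (−0.82). For Nr1d2 they were Tmx3 (0.83), Fut9 (0.82) and Xiap (0.82), and at the other end Ndufb7 (−0.71), Mt3 (−0.71) and Gpi1 (−0.71). For Nr1d1 they were Epn1 (0.78), Gna11 (0.74) and Zfp787 (0.73), and Ube4a (−0.73), Dhx36 (−0.73) and Tug1 (−0.73). None of the most similar genes of any member was another member. The Per genes were closest to Cspg4 (0.66), Kmt2b (0.66) and Caskin1 (0.66) for Per1, to Spred3 (0.71), Cacna1b (0.69) and Unc13a (0.67) for Per2, and to Trank1 (0.79), Rreb1 (0.75) and Miat (0.75) for Per3. They were farthest from Sucla2 (−0.64), 2610301B20Rik (−0.64) and Fkbp3 (−0.63), from Atp5c1 (−0.71), Atp5f1 (−0.65) and Skp1a (−0.62), and from Ppp2ca (−0.61), Ywhae (−0.58) and Ppp2cb (−0.58). Cry2 was closest to Crtc1, Sbf1 and Cluh (all 0.73) and farthest from Cacybp (−0.76), Eif3e (−0.75) and Sub1 (−0.71). Arntl was closest to Dcbld2 (0.59), Adamts6 (0.57) and Phf3 (0.56) and farthest from Tmem205 (−0.65), Gstm6 (−0.59) and Wscd1 (−0.57). Npas2 was closest to Myrip (0.62), Mertk (0.55) and Sh3rf3 (0.51) and farthest from Morc4, Taldo1 and Mrpl16 (all −0.50). Cry1 was closest to Ss18 (0.53), Lnx2 (0.50) and Hes3 (0.47) and farthest from Capn3 (−0.41), Nmrk1 (−0.41) and Lrrtm1 (−0.39). With the length and GC correction, the 3 highest of Clock became Lrrc8b (0.84), Megf9 (0.83) and Uhmk1 (0.83), and those of Nr1d1 became Crym (0.60), Caln1 (0.55) and Sdhaf1 (0.51), while Trank1 (0.72) stayed first for Per3 and Myrip (0.58) for Npas2. None of the 3 highest genes was kept by the correction for Arntl, Clock, Per1, Cry2, Nr1d1 or Nr1d2, 2 of 3 were kept for Npas2, Per2 and Cry1, and 1 for Per3. The highest r fell from 0.73 to 0.45 for Cry2, from 0.83 to 0.59 for Nr1d2 and from 0.66 to 0.50 for Per1.

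Outside the 10 members, 2 lists of genes that work on or below the loop were compared between virgin and primiparous females. Of 9 regulators of the loop, 8 were tested in the hypothalamus and 1 was called, Bhlhe41, a repressor of E-box genes also called DEC2, which was higher in primiparous females (log2 fold change 0.23 ± 0.080 SE, adjusted p = 0.0386) and was also called with the length and GC correction (0.28, adjusted p = 0.0482). The list's median was −0.08, beside 0.01 for all genes tested, and turned to 0.07 with the correction. Of 6 output genes, Dbp, a D-box activator driven by CLOCK and ARNTL, was higher (0.34 ± 0.11 SE, adjusted p = 0.0298), and Hlf, its relative (−0.24, adjusted p = 0.0122), and Nampt, which makes NAD (−0.25, adjusted p = 0.0114), were lower. The median of the output list was −0.06. With the length and GC correction no output gene was called, at adjusted p from 0.162 for Hlf to 0.879 for Nampt among the 3 named. In the hypothalamus 1 of 8 regulators and 3 of 6 output genes were thus called, beside the 22.6% of all genes, and none of either list was called in the other 4 regions. In the cerebellum the median of the regulators was −0.10 and that of the members −0.16, beside 0.01 for all genes tested, with 6 of 8 regulators and 7 of 10 members below 0. The output genes had a median of 0.08 there, with 5 of 6 above 0, and the 1 below 0, Tef, another D-box activator, was the nearest to a call (−0.18 ± 0.050 SE, adjusted p = 0.0666).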

How the data were processed

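RNA of 5 brain regions was measured in 77 libraries, each of 1 region of 1 animal. The authors enriched messenger RNA by its poly(A) tail, prepared NEBNext Ultra libraries, sequenced those of a region as 1 pool, aligned single-end reads with HISAT2 to mm10 and counted reads that map to 1 place with featureCounts and its inbuilt annotation; which strand setting they used is not given in the sources used here. Raw counts, as whole numbers, are what the deposited count table gives. The deposited log2 table, described by the authors as log2(CPM + 4), lies within 5e-05 of log2(count / median-of-ratios size factor + 4) and differs from log2(CPM + 4) by a median of 3.94; it was used only as an alternative. Spike-in reads were not analysed here.

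CPM was computed from the counts and library totals. A gene was kept if 8 or more libraries reached 5 CPM (13016 genes). Each region was fitted with edgeR 4.0.16 (TMM, robust quasi-likelihood F-test, Benjamini-Hochberg adjustment over all genes, threshold 0.05) in R 4.3.3; regions were compared in 1 fit of 10 groups, and interactions in fits of 4 groups, also with the animal as a replicate block. The labels give the animal number, and the same animal gave each region, so equal numbers pair the libraries; the correlation of their deviations across genes had a median of −0.0132 to 0.104 over the 10 pairs of regions. Animal means were tested with limma 3.58.1 and by exact permutation, and correlations by 100000 permutations of animals within state (numpy 2.4.6). In the length and GC correction, an offset removed the spline trend of each library with gene length and GC content, known for 12632 genes (97.05%). Alternatives were limma-voom, DESeq2 1.42.0, RLE size factors, no filter, the number series as a covariate, 1 fit of 10 groups and leaving out each library. The correction of animal means and of correlations was chosen after seeing the data. Simulated counts of the hypothalamus were used to test the parity fits by edgeR, limma-voom and DESeq2 and the length and GC correction. Simulated counts of hypothalamus and cerebellum were used for the interaction, with and without the block, and for a difference between regions. The permutation test of correlations was tested on simulated normal values. The other fits, among them that of animal means, were not tested by simulation.

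The members, gene lists and rule for similar genes (the 3 highest and 3 lowest r over all libraries) were chosen with earlier results of these data known. Marker and gene lists were written from general knowledge, and the result of 1 gene list is not reported here. Replicates are separate animals. The coefficient of variation between animals, as fitted by edgeR, was 11.3% to 16.3% over the regions with totals of 7959192 to 37871854 counts per library.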

Additional observations from a re-analysis of the deposited data

Results flagged for a closer look

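Within groups of libraries, 6 values of clock genes stood far from the rest of their group by Dixon's gap criterion, among 100 groups examined, of which chance marks about 1 in 20. Per1 in the cerebellum of primiparous animal 414 was at 42.0 CPM, with 60.2 to 81.8 CPM in the other libraries of its group. Per2 in the hypothalamus of virgin animal 4486 was at 25.5 CPM against 31.0 to 36.6 CPM. Cry1 in the hypothalamus of primiparous animal 4493, the only primiparous animal with a 4-digit number, was at 32.7 CPM against 23.7 to 27.2 CPM. Nr1d1 in the amygdala of virgin animal 4490 was at 268 CPM against 234 to 246 CPM. Nr1d2 was at 67.7 CPM in the hippocampus of primiparous animal 425, against 79.0 to 89.8 CPM, and at 174 CPM in the cerebellum of primiparous animal 4493, against 148 to 158 CPM.

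The parity difference of 9 combinations of clock gene and region differed from that in the hypothalamus by the interaction test in edgeR. Against the amygdala the differences, as hypothalamus minus amygdala on the log2 scale, were −0.42 for Clock, 0.29 for Nr1d1 and −0.33 for Nr1d2. Against the hippocampus they were −0.44 for Clock, 0.27 for Per1, 0.32 for Nr1d1 and −0.35 for Nr1d2. Against the cerebellum they were 0.47 for Per3 and 0.47 for Nr1d1. Of these 9, the difference of Nr1d1 between hypothalamus and cerebellum alone was also called with the replicate block and the length and GC correction together.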

How the results depend on the processing

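Under all alternatives no call of a clock gene changed its direction. In the hypothalamus 2939 genes and 3 clock genes were called. The number series as a covariate gave 3 and 0, the length and GC correction 417 and 0, and leaving out 1 library 2014 to 4119 and 3 to 3. In the fit of 10 groups Clock lost its call in the hypothalamus (−0.25, adjusted p = 0.128). In the amygdala, DESeq2 called 106 genes, the fit of 10 groups 142, the series covariate 14 and leaving out 1 library 0 to 31, against 0 in edgeR's regional fit; in the hippocampus, DESeq2 called 13, the fit of 10 groups 6 and leaving out 1 library 0 to 1; in the neocortex the fit of 10 groups called 6. None of these was a clock gene. In the cerebellum 92 genes were called; DESeq2 called 505, the series covariate 0, the length and GC correction 435, and leaving out 1 library 6 (without virgin animal 4486) to 903 (without primiparous animal 4493). The 1 clock gene called there was lost with limma-voom (0), the fit of 10 groups (0) and the series covariate (0), became 2 with the length and GC correction, and ranged from 0 to 3 over the libraries left out.

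Same-numbered libraries came from the same animal, and the replicate block lowered the interactions called from 2243 to 1449 against the hippocampus and left 2, 3, 0 and 3 clock genes called against amygdala, hippocampus, neocortex and cerebellum, in place of 3, 4, 0 and 2. With the block and the length and GC correction the numbers of genes and clock genes were 108 and 0 against the amygdala, 46 and 0 against the hippocampus and 681 and 1 against the cerebellum. With the series covariate they were 470 and 0, 1 and 0, and 0 and 0. In the fit of 10 groups they were 665 and 2 against the hippocampus, 1314 genes against the cerebellum and 1 gene against the neocortex. Between regions the block changed no count by over 1.5 times. For the animal mean, 0 to 9 genes were called when 1 animal was left out. Of the same-animal correlations, 8 reached 0.5, against 4 with Spearman's rho and 24 over the 6 to 8 virgin animals alone. Fewer than 24 reached 0.5 over the 8 primiparous animals alone. With so few animals an r of 0.5 arises by chance more often, and no share of all genes is given for either state alone. The counts within a state therefore do not show whether the regions were more closely related in virgin females. Apart from the length and GC correction and the series covariate, whose construction is given above, the cause of these shifts was not tested. The fewest reads behind a value of a clock gene were 63, for Npas2 in the cerebellum.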

Other observations

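Per1 and, less so, Per2 are known to respond to neuronal activity and to glucocorticoid hormones, apart from the loop itself, and lists of 10 immediate early genes and 8 glucocorticoid-responsive genes were measured in the same fits. In the hippocampus, where Per1 had a log2 fold change of −0.19, all 8 glucocorticoid-responsive genes had a value below 0, with a median of −0.17 beside −0.00015 for all genes tested, and Ddit4 had the smallest p of them (−0.32 ± 0.070 SE, edgeR adjusted p = 0.256). Their summed level was 487, 567 and 604 CPM in the lowest, median and highest virgin hippocampus and 414, 496 and 550 CPM in the primiparous ones. Of the immediate early genes, 9 of 10 were below 0 there, with a median of −0.18 and with Nr4a1 at −0.24 ± 0.073 SE (adjusted p = 0.564). None of these genes was called in the hippocampus.

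In the hypothalamus, where 22.6% of all genes were called, 2 of the 8 glucocorticoid-responsive genes were called, both lower in primiparous females, Errfi1 (−0.24 ± 0.073 SE, adjusted p = 0.0208) and Pdk4 (−0.39 ± 0.13 SE, adjusted p = 0.0297), and neither was called with the length and GC correction (adjusted p = 0.121 and 0.235). The median of the list was −0.15 there, −0.03 in the amygdala, −0.14 in the neocortex and −0.11 in the cerebellum. Of the immediate early genes, 0 of 10 were called by edgeR in the hypothalamus, where Npas4 had 0.61 ± 0.23 SE (adjusted p = 0.0538), and the list's median was 0.11 there, −0.20 in the amygdala, 0.16 in the neocortex and −0.02 in the cerebellum. The corrected medians of the immediate early genes were −0.03, −0.09, 0.09 and −0.03 in the same order, so that the sign in the hypothalamus turned, while those of the glucocorticoid-responsive genes stayed below 0 in all 5 regions. Differences between regions in these lists were not tested.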
